A study of Mus musculus with 2 samples.

Results

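The genes described here were 8 protein-coding genes of mouse chromosome 15 that lie within 10 Mb of *Eppk1* and were chosen by their measured difference between *Eppk1* knockout and wildtype skin, out of 19046 genes measured. They were *Jrk*, *Ly6k*, *Csf2rb*, *Serhl*, *Poldip3*, *Pnpla3*, *Arhgap8* and *Cdpf1*. The data were single-cell RNA counts from 6 mm punches of dorsal skin of 1 wildtype C57BL/6J mouse and 1 *Eppk1*-/- mouse that had been backcrossed to C57BL/6J, with no treatment in either. The mice's age, the number of backcross generations and the strain in which the allele was made are not given in the sources used here. Each genotype was 1 animal and 1 library, so no test was run and every interval covers counting error only. A difference between genotypes cannot be told apart from one between these animals, punches or libraries.

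*Eppk1* encodes epiplakin, a plakin that binds keratin filaments in epithelial cells. A targeted allele that is backcrossed carries neighbouring stretches of its chromosome along with it, and those stretches may keep the sequence of the strain in which the allele was made. A sequence difference in such a stretch can act on a gene in many of the cells that use it, whereas a response to a missing protein can be limited to certain cells. This is background, and the haplotype of the knockout mouse cannot be read from these counts. The counts are of RNA matched by the probes of the assay, whose sequences are not given in the sources used here. Whether a ratio goes with the RNA level or with how well the probes match in this mouse was not tested. The question asked of the data was whether each gene differed in the same direction in every cell type and keratinocyte stage in which it was expressed.

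The files held 77638793 UMIs in 9179 wildtype cells and 65118304 UMIs in 8811 knockout cells. After filtering, 8875 wildtype and 8617 knockout cells were kept, with a median of 4963 and 5006 UMIs (unique molecular identifiers, each standing for 1 counted molecule). Clusters were named from marker genes. Keratinocyte clusters had 8 to 10 of 10 markers, fibroblast clusters 7 of 7, macrophage clusters 8 of 8, the sebocyte cluster 7 of 8, the dendritic cluster 6 of 8, the T and NK cell clusters 6 or 7 of 8, the endothelial cluster 6 of 7 and the mast cell cluster 7 of 7. Cluster 11 was left unnamed because it had markers of both dendritic cells and macrophages, and immunoglobulin genes led it. *Eppk1* itself was at 3011 CPM (UMIs of the gene per 1000000 UMIs of that cell type in the library) in wildtype keratinocytes, against 793 in those of the knockout, so RNA matched by its probes was reduced and not absent. Where those probes lie relative to the deleted part is not given in the sources used here, and this check of the labels is therefore partial. The libraries shared 1211 droplet barcodes, carried by 1167 kept wildtype and 1183 kept knockout cells. Keratinocyte and fibroblast ratios and counts of genes were also computed without these cells.

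On GRCm38, with gene limits from GENCODE, *Eppk1* (ENSMUSG00000115388) runs on the minus strand from 76101481 to 76120195. *Jrk* (ENSMUSG00000046380, minus strand, 74702301 to 74709535) and *Ly6k* (ENSMUSG00000044678, minus strand, 74796874 to 74799986) lie 1.39 and 1.30 Mb before it. *Csf2rb* (ENSMUSG00000071713, plus strand, 78325752 to 78353847) lies 2.21 Mb after it. The other 5 genes sit between 6.97 and 9.69 Mb after it. They are *Serhl* (ENSMUSG00000058586, plus strand, 83089506 to 83116674), *Poldip3* (ENSMUSG00000041815, minus strand, 83125976 to 83149384), *Pnpla3* (ENSMUSG00000041653, plus strand, 84167837 to 84187236), *Arhgap8* (ENSMUSG00000078954, plus strand, 84720052 to 84772207) and *Cdpf1* (ENSMUSG00000064284, minus strand, 85806972 to 85811697). *Serhl* overlaps the annotated gene *Rrp7a* on the other strand, which was not among the genes measured. *Eppk1* overlaps *BC024139* on its own strand, which was.

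The 250 bases before the start of 3 of the 8 genes were found in RefSeq's promoter table (GRCm38.p6), and they are shown because the 3 genes differed in both directions: *Pnpla3* was higher and *Serhl* and *Cdpf1* were lower in the knockout. Capitals mark matches, on either strand, to the GC box GGGCGG and to CCAAT. The first 2 stretches are written along the plus strand (chr15:84167566-84167815 for *Pnpla3* and chr15:83099955-83100204 for *Serhl*), and that of *Cdpf1* on the minus strand (chr15:85811698-85811947).
Pnpla3: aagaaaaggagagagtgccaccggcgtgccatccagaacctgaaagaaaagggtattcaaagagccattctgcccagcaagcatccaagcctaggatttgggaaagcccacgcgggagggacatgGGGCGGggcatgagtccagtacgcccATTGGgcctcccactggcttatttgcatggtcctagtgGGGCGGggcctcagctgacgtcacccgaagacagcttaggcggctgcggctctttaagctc
Serhl: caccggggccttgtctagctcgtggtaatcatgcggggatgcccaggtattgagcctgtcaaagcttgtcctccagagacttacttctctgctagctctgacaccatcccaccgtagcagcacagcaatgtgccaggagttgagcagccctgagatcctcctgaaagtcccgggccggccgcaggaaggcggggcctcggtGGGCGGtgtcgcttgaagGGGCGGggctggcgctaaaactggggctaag
Cdpf1: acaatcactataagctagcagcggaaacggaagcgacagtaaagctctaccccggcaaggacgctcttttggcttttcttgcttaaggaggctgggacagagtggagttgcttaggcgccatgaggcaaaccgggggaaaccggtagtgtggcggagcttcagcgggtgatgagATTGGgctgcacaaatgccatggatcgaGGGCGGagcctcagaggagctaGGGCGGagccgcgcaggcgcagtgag
Each held 2 GC boxes, which 32.7% of all 32851 stretches of this length in the table held at least once. *Pnpla3* and *Cdpf1* each held 1 CCAAT match, a motif found in 33.8% of all stretches. None of the 3 held TATAAA (12.4% of all), CACGTG (6.02%) or the sterol motif TCACNCCAC (1.05%). The stretch of *Serhl* lies inside the GENCODE limits given above, because RefSeq places the start further along the gene. These matches describe the reference sequence and not the knockout mouse's own.

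*Pnpla3* encodes a lipase and acyltransferase of lipid droplets, best known for its part in fat storage in the liver. It was higher in the knockout in both cell types in which it could be measured. Keratinocytes held 13.2 CPM (95% interval 12.1 to 14.5) in the wildtype library, against 49.1 CPM (46.4 to 52.0) in the knockout, a log2 ratio of knockout over wildtype of 1.89 (1.74 to 2.05). Sebocytes, the lipid-filled cells of the sebaceous gland, held 7 UMIs in 152 wildtype cells and 166 UMIs in 132 knockout cells, or 5.06 and 89.7 CPM. That was a log2 ratio of 4.05 (3.07 to 5.48). Median UMIs per sebocyte were 6094 in the wildtype and 12762 in the knockout, and the part of this depth gap in the result was not tested. Thinned to 2000 UMIs per cell, 1.44% of wildtype and 10.2% of knockout sebocytes still held a *Pnpla3* UMI, against 0.12% and 0.31% of fibroblasts, a type that had too few UMIs (7 and 20) to be measured.

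Along keratinocyte differentiation, *Pnpla3* RNA was found mainly in the differentiated stages. In granular cells, the last living layer, it was at 59.5 CPM (53 UMIs) and 167 CPM (103 UMIs), a log2 ratio of 1.48 (0.99 to 1.99). In spinous cells it was at 20.7 and 86.0 CPM, a log2 ratio of 2.06 (1.87 to 2.24). This stage pooled a sub-cluster led by *Krt1* with a deeper one led by *Ereg*, *Serpina12* and *Hal*. The deeper one held 9800951 of the 15829378 wildtype UMIs of the stage. Cells of the upper follicle held 11.2 and 28.7 CPM, a log2 ratio of 1.35 (0.86 to 1.87). All 3 stages thus had higher levels in the knockout, and none of these intervals held 0. Most of the knockout UMIs (899 of 1225) came from the single keratinocyte cluster with the deepest cells (median 21553 UMIs), led by *Ereg* and *Krt77*, in which the levels were 30.6 and 163 CPM. Among the leading genes of that cluster were also *Ivl*, used as a granular marker, and *Krt10*, used as a spinous one.

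*Serhl* encodes a serine hydrolase-like protein. It was lower in the knockout in all 4 cell types that expressed it. Wildtype keratinocytes held 1108 UMIs, or 30.2 CPM (28.4 to 32.0), and knockout keratinocytes 399 UMIs, with an interval of 14.5 to 17.7 CPM, a log2 ratio of -0.91 (-1.08 to -0.75). Fibroblasts were at 17.6 and 10.7 CPM, a log2 ratio of -0.72 (-0.99 to -0.44). The wildtype levels of keratinocytes and sebocytes lay close together, and those of fibroblasts and macrophages were lower. Macrophages were at 20.3 and 6.62 CPM, a log2 ratio of -1.60 (-2.28 to -0.998), and sebocytes at 30.4 and 8.65 CPM, a log2 ratio of -1.79 (-2.74 to -0.95). The macrophage cluster led by *Fcna* and *Lyve1* held 243 of 569 wildtype and 229 of 863 knockout macrophages. Its median UMIs were 11855 and 5702. The part of this mix and depth in the macrophage ratios of *Serhl* and the other genes was not tested.

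Within keratinocytes, *Serhl* was lower in 5 of the 6 stages or sub-clusters that expressed it, and bulge and germ cells of the hair follicle were the exception. Basal cells were at 29.4 and 16.2 CPM, a log2 ratio of -0.85 (-1.23 to -0.50), and spinous cells at 25.5 and 12.4 CPM, a log2 ratio of -1.03 (-1.33 to -0.75). Proliferating cells were at 64.9 and 26.7 CPM, a log2 ratio of -1.26 (-2.05 to -0.56). Bulge and germ cells held 104 wildtype and 53 knockout UMIs of *Serhl*, or 40.0 and 38.8 CPM, a log2 ratio of -0.04 whose interval, -0.55 to 0.44, held 0. Over the 14 clusters of all cells in which *Serhl* was expressed, 12 had it lower and 2 had intervals that held 0, and those 2 were the follicle clusters led by *Krt24* and *Angptl7* and by *Sncg* and *Cacna1c*, with ratios of 0.31 (-0.39 to 0.97) and -0.39 (-1.17 to 0.31). Whether the follicle ratio differs from the others beyond the variation between animals was not tested.

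**Figure D1:**
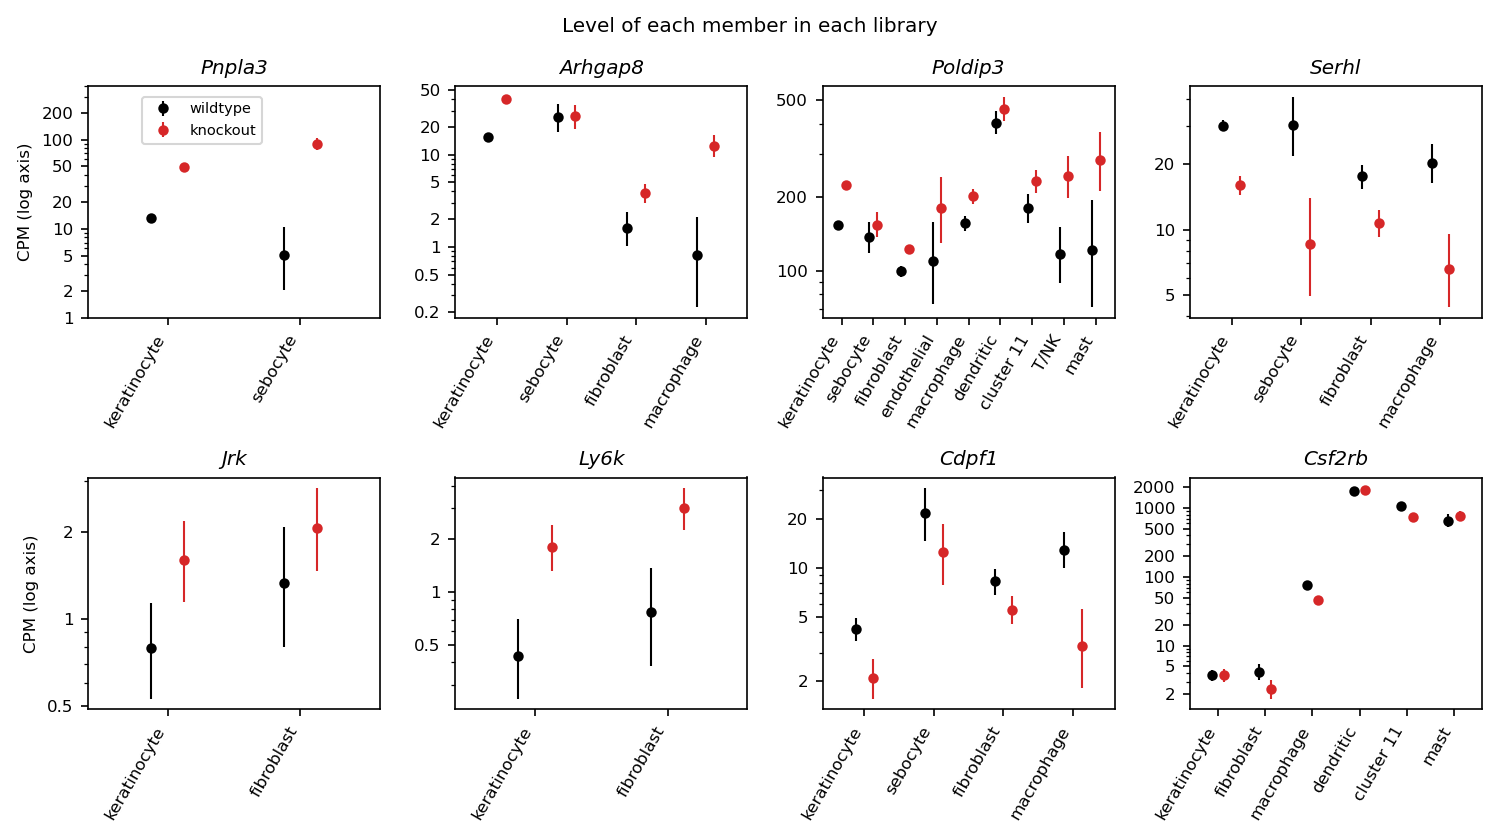
Level of each gene in CPM (log axis) in the wildtype (black) and knockout (red) library, for each cell type with at least 50 UMIs over both libraries. Bars are 95% Poisson intervals and cover counting error only, and *Serhl* is lower and *Pnpla3* higher in the knockout in each cell type shown.

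*Poldip3* encodes a nuclear protein that binds DNA polymerase delta and takes part in mRNA export. It was the most widely expressed of the 8, with at least 50 UMIs in 9 cell types or clusters, and it was higher in the knockout in 6 of them. Keratinocytes were at 154 CPM (150 to 158) and 225 CPM (219 to 231), a log2 ratio of 0.55 (0.49 to 0.60). Fibroblasts were at 99.5 and 123 CPM, a log2 ratio of 0.30 (0.20 to 0.40), and macrophages at 157 and 202 CPM, a log2 ratio of 0.36 (0.22 to 0.51). T and NK cells and mast cells had the largest ratios, with wide intervals. T and NK cells were at 117 CPM (59 UMIs) and 244 CPM (101 UMIs), a log2 ratio of 1.05 (0.58 to 1.54), and mast cells at 122 CPM (17 UMIs) and 283 CPM (52 UMIs), a log2 ratio of 1.19 (0.41 to 2.10). Mast cells passed the minimum of 50 UMIs only through the knockout library, so their place among the 6 depends on the difference that was counted. Cluster 11 had a ratio of 0.36 (0.11 to 0.62).

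The 3 remaining types also had ratios above 0, with intervals that held it. The ratio was 0.70 (-0.01 to 1.45) in endothelial cells, 0.19 (-0.04 to 0.42) in dendritic cells and 0.17 (-0.10 to 0.44) in sebocytes. Scaling by TMM instead of the total would add 0.018, 0.040 and 0.206 to these ratios and move each lower limit above 0. Whether these intervals held 0 thus depends on the scaling. The keratinocyte markers summed to 8514 CPM in wildtype and 4531 CPM in knockout endothelial cells and to 6757 and 4373 CPM in dendritic cells, with 6 and 10 of the 10 markers lower in the knockout. In the types with the largest ratios, these markers summed to 4315 and 5442 CPM in mast cells and to 6598 and 6243 CPM in T and NK cells. Of the 10 markers, 3 and 4 were lower in the knockout there. The part of keratinocyte RNA in the *Poldip3* ratios of these types was not tested. Over 10 keratinocyte stages or unnamed sub-clusters *Poldip3* was higher in 7 and lower in none. The 7 include the sub-clusters led by *Col1a1* and by *Retnla*, genes of other cell types. Basal cells had a ratio of 0.79 (0.68 to 0.91), spinous cells of 0.55 (0.47 to 0.64) and bulge and germ cells of 0.46 (0.25 to 0.67). Granular cells had a ratio of 0.17 (-0.33 to 0.66) and proliferating cells of 0.18 (-0.12 to 0.48). A *Krt75*-led sub-cluster with 6 knockout UMIs was the only one below 0, at -0.55 (-2.14 to 0.53).

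*Poldip3* and *Serhl* are neighbours, 9.30 kb apart and on opposite strands, and they differed in opposite directions. In each of the 4 cell types that expressed both, *Serhl* was lower and the *Poldip3* ratio was above 0, with an interval that held 0 in sebocytes.

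*Arhgap8* encodes a GTPase-activating protein. It was higher in the knockout in keratinocytes and macrophages and did not differ beyond counting error in sebocytes. Keratinocytes were at 15.4 CPM (14.1 to 16.7) and 40.0 CPM (37.5 to 42.6), a log2 ratio of 1.38 (1.23 to 1.53). Macrophages held 4 UMIs in 569 wildtype cells and 53 UMIs in 863 knockout cells, or 0.82 and 12.5 CPM, a log2 ratio of 3.78 (2.49 to 5.86). The 53 UMIs were spread over 46 cells with at most 3 in 1 cell, and they came from both macrophage clusters (28 and 25 UMIs). Summed keratinocyte markers in macrophages came to 2060 CPM and 2028 CPM, 4.49% and 4.34% of the level in keratinocytes, and 6 of the 10 markers were lower in the knockout. Without the cells most like doublets (the 5% with the highest Scrublet scores) the macrophage counts were 4 and 45 UMIs, a ratio of 3.55 (2.24 to 5.64). Sebocytes were at 25.3 CPM (35 UMIs) and 26.0 CPM (48 UMIs), a log2 ratio of 0.03 (-0.62 to 0.71). Fibroblasts, where the level was under 20% of that in keratinocytes, were at 1.61 and 3.81 CPM, a log2 ratio of 1.22 (0.55 to 1.99), and had a ratio of 0.49 (-0.56 to 1.66) without the cells most like doublets.

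Of the 5 keratinocyte stages or sub-clusters that expressed *Arhgap8*, 3 had it higher. Basal cells, the layer attached to the basement membrane, were at 39.9 and 99.4 CPM, a log2 ratio of 1.31 (1.11 to 1.52). Spinous cells were at 5.69 and 22.8 CPM, a log2 ratio of 2.00 (1.65 to 2.36), and upper follicle cells at 13.2 and 24.4 CPM, a log2 ratio of 0.88 (0.39 to 1.39). Spinous cells passed 20% of the highest stage only in the knockout library (22.9%, against 13.3% in the wildtype). Their place among the expressing stages thus depends on the difference that was counted. Proliferating cells, the highest stage in the wildtype at 42.9 CPM, were at 61.9 CPM in the knockout, where basal cells were highest, and had a ratio of 0.52 (-0.09 to 1.16). The sub-cluster led by *Ccl2* and *Pdk4* had one of 0.23 (-0.44 to 0.87). None of the 5 had it lower.

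**Figure D2:**
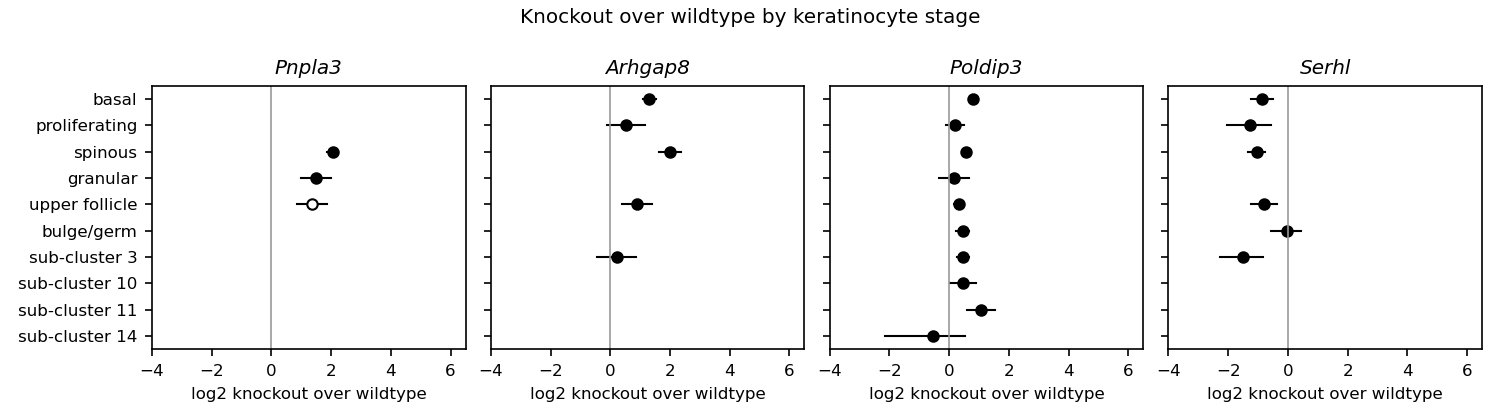
Log2 ratio of knockout over wildtype (horizontal axis) of *Pnpla3*, *Arhgap8*, *Poldip3* and *Serhl* in each keratinocyte stage or unnamed sub-cluster with at least 50 UMIs, with 95% counting intervals. Filled points are stages in which the gene reached 20% of its highest level in at least 1 library. The points of *Serhl* lie from -1.51 to -0.80 except for bulge and germ cells at -0.04, and those of *Pnpla3* and *Arhgap8* lie above 0.

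*Cdpf1* encodes a small protein with a cysteine-rich domain whose function is little known. Its ratio was below 0 in all 4 cell types with enough UMIs. Sebocytes had the highest wildtype level, 21.7 CPM (30 UMIs), against 12.4 CPM (23 UMIs) in the knockout, a log2 ratio of -0.80 (-1.65 to 0.03). Macrophages were at 12.9 CPM (63 UMIs) and 3.31 CPM (14 UMIs), a log2 ratio of -1.92 (-2.91 to -1.11), over macrophage clusters mixed differently in each library. Fibroblasts were at 8.24 and 5.49 CPM, a log2 ratio of -0.58 (-0.98 to -0.19). As a mean over cells the ratio was -0.39. The same counting interval moved to that value runs from -0.79 to 0.01 and does not cover the spread between cells. Keratinocytes held 154 and 52 UMIs, or 4.19 and 2.09 CPM, a log2 ratio of -0.999 (-1.49 to -0.55), at a level under 20% of that of sebocytes. Spinous cells, the only keratinocyte stage with enough UMIs, had 58 and 15 and a ratio of -1.38 (-2.34 to -0.58).

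*Jrk* and *Ly6k*, the 2 genes before *Eppk1*, were near the lower limit of what could be measured. *Jrk* encodes a nuclear DNA-binding protein named after the jerky mouse. It had 29 and 40 UMIs in keratinocytes, or 0.79 CPM (0.53 to 1.13) and 1.60 CPM (1.15 to 2.18), a log2 ratio of 1.02 (0.30 to 1.76). In fibroblasts it had 19 and 38 UMIs, and the ratio of 0.62 had an interval, -0.19 to 1.52, that held 0. *Ly6k* encodes a GPI-anchored surface protein of the Ly6 family, known from sperm. It had 16 and 45 UMIs in keratinocytes, or 0.44 CPM (0.25 to 0.71) and 1.80 CPM (1.32 to 2.42), a log2 ratio of 2.02 (1.20 to 2.97). In fibroblasts it had 11 UMIs over 1846 wildtype cells and 55 UMIs over 2802 knockout cells, a log2 ratio of 1.91 (1.01 to 3.04). Cluster 11 held 1 and 30 *Ly6k* UMIs, under the minimum of 50, and the 30 lay in 7 cells. No keratinocyte stage had enough UMIs of either gene.

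*Csf2rb* encodes the beta chain shared by the receptors for IL-3, IL-5 and GM-CSF, which act on mast cells, eosinophils and myeloid cells. Its ratios lay on both sides of 0, and no cell type with enough UMIs had it higher beyond counting error. Dendritic cells had the highest level and did not differ beyond counting error, at 1788 CPM (1699 to 1880) and 1846 CPM (1743 to 1953), a log2 ratio of 0.05 (-0.06 to 0.16). Mast cells were at 658 CPM (92 UMIs) and 779 CPM (143 UMIs), a log2 ratio of 0.24 (-0.14 to 0.64). Cluster 11 was at 1055 and 730 CPM, a log2 ratio of -0.53 (-0.65 to -0.41). The median over all genes was also below 0 in that cluster, at -0.29, and its scaling by TMM would add 0.30 to the ratio. Without the cells most like doublets it was -0.11 (-0.23 to 0.02). Macrophages, at a far lower level of 77.3 and 46.6 CPM, had a ratio of -0.73 (-0.99 to -0.48), and fibroblasts, with 60 and 43 UMIs, of -0.84 (-1.44 to -0.25), or -0.29 (-1.29 to 0.73) without the cells most like doublets. In keratinocytes the ratio was 0.01 (-0.39 to 0.40), on 136 and 93 UMIs, of which 113 and 81 came from a sub-cluster led by *Retnla* and *Cd207*, genes of immune cells. Without the shared droplet barcodes the ratio was 0.45 (-0.01 to 0.91) in keratinocytes and -0.54 (-1.18 to 0.08) in fibroblasts, and with each cell gated by its own markers it was -0.74 (-1.11 to -0.39) in keratinocytes. *Csf2rb2*, a near-identical paralog 20.03 kb before it whose RNA the probes may not fully separate, had ratios of 0.23 (0.03 to 0.43) in dendritic cells, 1.002 (0.41 to 1.65) in mast cells and -0.19 (-0.41 to 0.04) in cluster 11.

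**Figure D3:**
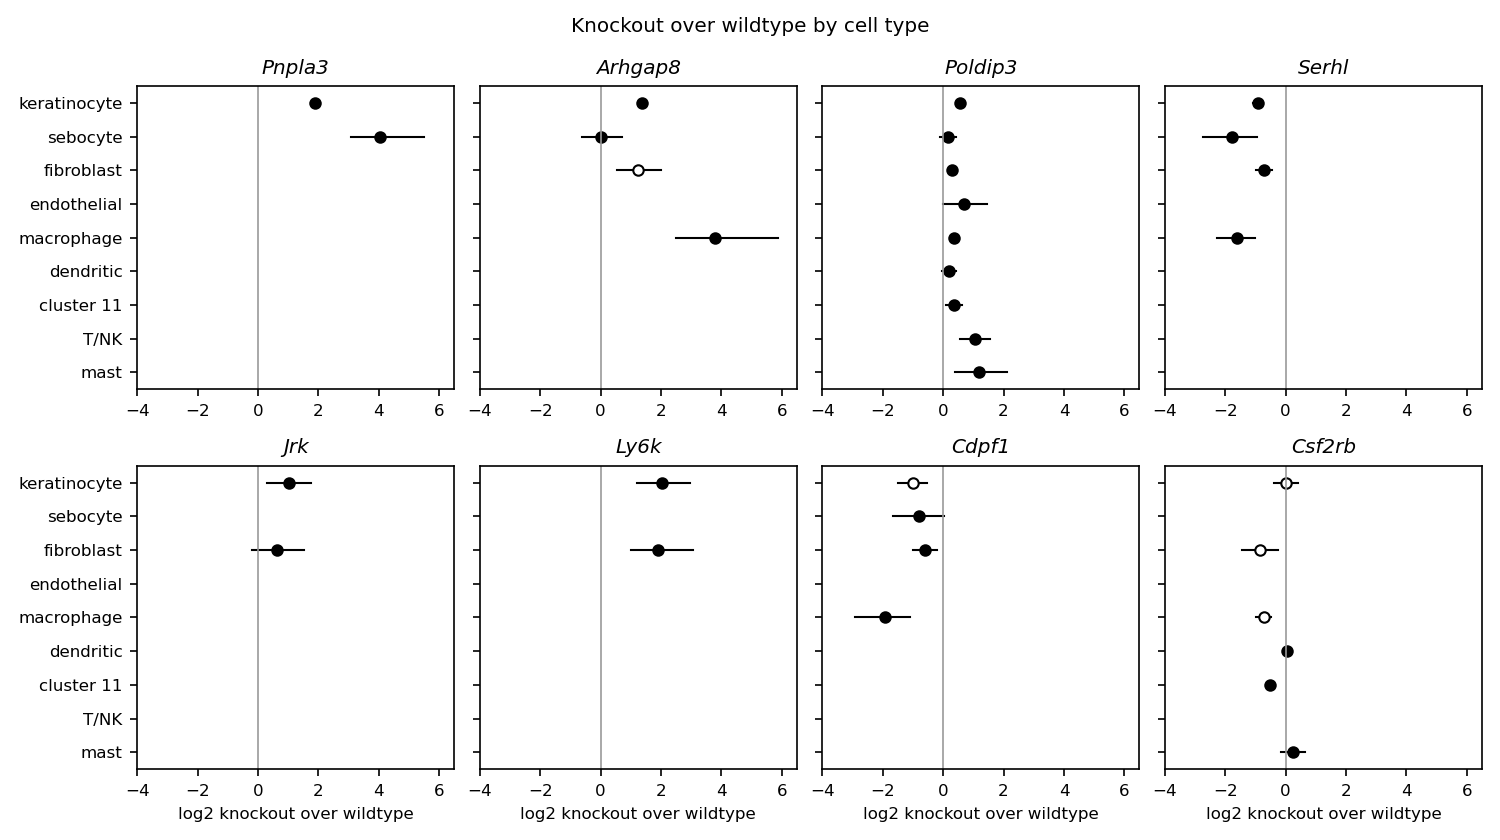
Log2 ratio of knockout over wildtype (horizontal axis) of each of the 8 genes in each cell type with at least 50 UMIs over both libraries, with 95% counting intervals. Filled points are cell types in which the gene reached 20% of its highest level, and open points those below it. *Poldip3* has 9 points, all above 0, and *Csf2rb* has points on both sides of 0.

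Counted by a common rule, 6 of the 8 genes had 1 direction. The rule took the cell types with at least 50 UMIs and at least 20% of the gene's highest level in at least 1 library. It asked for intervals on the same side of 0 in at least 2 of them and on the opposite side in none. The 6 were *Pnpla3*, *Arhgap8*, *Poldip3* and *Ly6k*, higher, and *Serhl* and *Cdpf1*, lower. *Arhgap8* met it in keratinocytes and macrophages, and macrophages passed 20% only in the knockout library (31.4%, against 3.24% in the wildtype). Its place among the 6 thus depends on the difference that was counted. The same holds for *Pnpla3* in sebocytes and *Ly6k* in fibroblasts. These passed 50 UMIs only through the knockout library (166 and 55 UMIs, against 7 and 11 in the wildtype). *Cdpf1* met the rule in fibroblasts and macrophages, and macrophages passed 50 UMIs only through the wildtype library (63 UMIs, against 14 in the knockout). Its place among the 6 thus depends on the counted difference too. *Jrk* and *Csf2rb* each had 1 interval off 0. Each of the 6 had at least 2 intervals off 0, and among all 4812 genes with as many, 41.6% met the rule. The genes were chosen on their keratinocyte and fibroblast differences, which also count in the rule, and *Ly6k* met it in those types alone. Nothing is therefore read from this share. Apart from *Poldip3*, the 6 could be judged in 2 to 4 cell types, and fewer types make the rule easier to meet. Without the shared droplet barcodes it was met by 4, *Arhgap8* and *Ly6k* dropping out, and with no minimum share of the highest level by 7, *Csf2rb* coming in. In keratinocyte stages *Pnpla3*, *Arhgap8*, *Poldip3* and *Serhl* met it, against 63.7% of 2950 genes. The stages split the same keratinocyte UMIs on which the genes were chosen, so this share too is a description only. The cell types come from the same 2 animals and are not replicates of each other.

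In size, 7 of the 8 genes lay past a log2 ratio of 0.5 in keratinocytes, 5 higher and 2 lower, and without the shared droplet barcodes 6, *Ly6k* having under 50 UMIs. Of 11812 genes with at least 50 UMIs there, 3.31% were higher and 4.59% lower by as much. In fibroblasts 3 were higher, *Jrk* among them with an interval that held 0, and 3 lower, against 8.46% and 7.03% of 11847 genes. Without the cells most like doublets 3 were left in fibroblasts, *Ly6k* higher and *Serhl* and *Cdpf1* lower. The genes were chosen on these contrasts, and nothing is read from these shares. In macrophages, where 5 were measured, *Arhgap8* was higher by as much (7.46% of 9535 genes) and *Serhl*, *Cdpf1* and *Csf2rb* were lower (15.8%). In sebocytes, where 5 were measured, *Pnpla3* was higher (6.47% of 7005 genes) and *Serhl* and *Cdpf1* were lower (22.5%). The interval of *Cdpf1* in sebocytes held 0. The median ratio over all genes was -0.16 in sebocytes and -0.10 in macrophages.

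**Figure D4:**
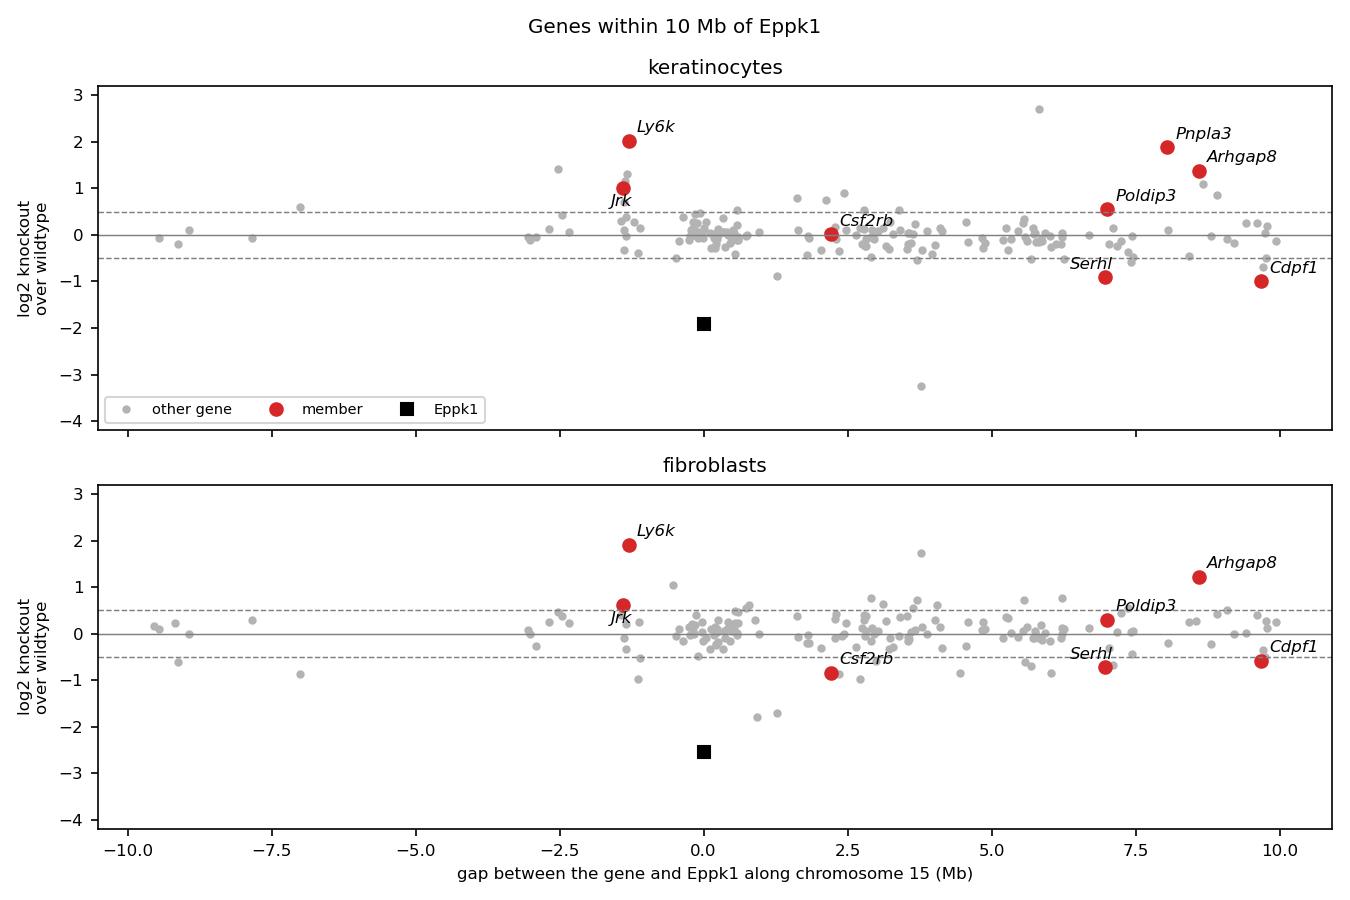
Log2 ratio of knockout over wildtype (vertical axis) against the gap to *Eppk1* along chromosome 15 in Mb (horizontal axis) for genes with at least 50 UMIs, in keratinocytes (top) and fibroblasts (bottom). Red points are the genes described and the black square is *Eppk1*, among grey points for other genes that lie mostly between the dashed lines at -0.5 and 0.5. *Pnpla3* is not shown in fibroblasts, where it had 27 UMIs.

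Of 285 genes within 10 Mb of *Eppk1*, 168 could be measured in both keratinocytes and fibroblasts, with a median ratio of -0.02 and 0.05. Past 0.5 in the same direction in both types were 7 (4.17%). *Jrk*, *Ly6k* and *Arhgap8* were higher, and *Serhl*, *Cdpf1*, *Eppk1* itself and *Tef*, a transcription factor of the circadian clock, were lower. The share was 1.5% of 267 genes on the rest of chromosome 15, 1.78% of 10467 genes on other chromosomes and 1.81% over all, and since 5 of the 7 are genes chosen for their difference, the shares are a description. *Tef* was at 50.9 and 35.7 CPM in keratinocytes, a ratio of -0.51, and had -0.70 in fibroblasts. It was no longer among the genes past 0.5 in both types with ratios centred on the median over all genes. The same held with clusters weighted by wildtype shares. Past 0.5 in keratinocytes in either direction were 23 of the 182 measured genes of the region that were not among the 8, *Eppk1* included, or 12.6%, against 7.9% of all genes. At the edge of this size, *Poldip3* was at 0.55 and *Gpt* and *Pdxp* at 0.53, with *Zfp623* and *Iqank1* just under it at 0.46.

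Over the 14 genes nearest to the 8 on either side with at least 50 UMIs in keratinocytes, the ratio ran from -0.68 to 1.32. Of these, 4 (28.6%) were past 0.5, against 7.9% of all genes, a share of few genes given as a description. *Samm50*, 5.01 kb after *Pnpla3*, encodes a protein of the mitochondrial outer membrane and was at 49.1 and 52.8 CPM, a ratio of 0.10. *Cyb5r3*, 4.11 kb after *Poldip3*, had a ratio of -0.20, and *Ppara*, 4.15 kb before *Cdpf1*, of 0.26. *Tcf20*, before *Serhl*, had a ratio of 0.00, and *Ttll12*, 573 kb before *Pnpla3*, of -0.47. Of the 4 past 0.5, *Phf21b* after *Arhgap8* had 1.09 on 31 and 45 UMIs, and *Ly6g6g* before *Ly6k* had 1.32 on 47 and 80. *Psca* after *Jrk* had 0.72 (0.01 to 1.43) on 34 and 38 UMIs, and *Ttc38* after *Cdpf1* had -0.68 on 114 and 48. *Ly6g6g*, *Psca* and the *Ly6* family gene *Slurp2* (1.16) lie in the same *Ly6* gene cluster as *Ly6k*.

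Genes that share a pathway or family with the 8 were read in keratinocytes against the 7.9% of all genes past 0.5 there, so that a list with none past it is close to the background. Of 10 measured lipid droplet genes besides *Pnpla3*, none was past 0.5 in either direction and the median was 0.01, against -0.02 over all genes. *Plin2*, a droplet coat protein, had a ratio of 0.40, *Mgll* of 0.28, and the triglyceride synthesis enzymes *Dgat2* and *Dgat1* of -0.30 and -0.26. Of 11 lipogenesis genes, none was past 0.5, with *Insig1* at -0.48 and *Mlxipl* at -0.28 the lowest and *Scd2* at 0.21 and *Acly* at 0.15 the highest. Of 17 genes of DNA polymerase delta and mRNA export, none was past 0.5, and these ran from *Thoc5* at -0.27 and *Poldip2* at -0.18 to *Pcna* at 0.15 and *Pold3* at 0.19. The 11 measured genes of the shared cytokine receptor ran from *Socs2* at -0.43 and *Socs3* at -0.42 to *Csf2ra* at 0.26 and *Csf2* at 0.42. Of 8 *Ly6* family genes besides *Ly6k*, *Slurp2* and *Psca* were past 0.5 and none was lower by as much, with *Ly6e* at -0.38 and *Slurp1* at -0.32 the lowest. *Ly6g6g* was not in this list. Of 7 plakins, *Eppk1* alone was past 0.5, and *Plec* had a ratio of 0.27 and *Dst* of -0.23. In other cell types more genes of some lists were past 0.5. In fibroblasts 4 of 12 lipid droplet genes were higher and 3 lower, against 8.46% and 7.03% of all genes. In macrophages 5 of 9 lipogenesis genes were lower, against 15.8% of all genes, and none of 8 lipid droplet genes was. In sebocytes 6 of 7 genes of the shared cytokine receptor were lower, against 22.5% of all genes, and 1 of 9 lipogenesis genes was.

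Over 22 wildtype clusters, the genes whose levels were most like each of the 8 were on other chromosomes, apart from *Csf2rb2*. The likeness is Pearson's r of log2(CPM + 1) over clusters, given as a description over clusters of 1 library. *Pnpla3* was most like *Sdr9c7* (r = 0.883) and *Il1f5* (0.864), which had ratios of -0.15 and -0.13 in keratinocytes. *Serhl* was most like *Sun1* (0.896) and *Lancl1* (0.881), with 0.07 and 0.01. *Arhgap8* was most like *Prkci* (0.800) and *Cdcp1* (0.793), with 0.10 and 0.04, and *Poldip3* like *Ints12* (0.823) and *Pak1* (0.811), with -0.10 and 0.00. For *Cdpf1*, *Dolk* was among the most like genes (0.856), with 0.06. *Csf2rb* was most like *Csf2rb2* (0.963) and *Plxnc1* (0.943). For *Jrk* and *Ly6k*, with 53 and 39 wildtype UMIs, the most like genes were *Adh7* (0.788) and *Cldn12* (0.711), and *Pecam1* (0.698) and *Mybpc2* (0.663), with ratios of -0.35, 0.12, -0.63 and -0.52.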

How the data were processed

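Skin was dissociated and profiled with the 10x Genomics fixed-RNA probe assay. The authors deposited raw UMI counts per gene and cell. According to the file headers these came from Cell Ranger 8.0.1. The build named for them is mm10 (GRCm38), and gene limits were read from GENCODE on that build. Kept cells had between 200 and 45000 UMIs, between 100 and 7500 genes and no more than 10% of UMIs on mitochondrial genes, which were then removed (13 genes). Libraries were integrated in Seurat 5.3.0 (reciprocal PCA, 2000 variable genes, 50 components, resolution 0.5), leaving 448 genes out of the variable ones (the 8, the listed gene groups and genes within 20 Mb of *Eppk1*, unless they were markers), and 26 clusters were named from markers. Keratinocytes were clustered again into stages. A sub-cluster stayed unnamed where genes of another type led it, a rule set after the clusters were seen, and the borders of sub-clusters moved with numeric settings of the computer, which were then fixed. Cluster 22, with 56 of 57 cells from the knockout, was left out. UMIs were summed per library and cell type and divided by the total (CPM). Intervals are 95% exact Poisson intervals for CPM, exact conditional binomial intervals for ratios (0.5 UMI added to each count in the ratio itself) and Clopper-Pearson intervals for shares. A count of 0 allows up to 3 counts. Genes needed at least 50 UMIs over both libraries.

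Doublets: Scrublet (scanpy 1.11.5) marked 2 wildtype and 217 knockout cells by its own threshold, which did not work for the wildtype, and the 5% of cells with the highest scores in each library were removed as an alternative instead. Probe numbers per gene are not given in the sources used here, so levels of different genes were not compared. Named genes were the 8, *Eppk1*, flanking genes, genes of the region past 0.5 the same way in both types, the 2 genes most like each, and the 2 highest and 2 lowest of each list. Genes that led clusters, *Gpt*, *Pdxp*, *Zfp623*, *Iqank1*, *Apobec3* and *Csdc2* were named after their values were seen. The 8 genes and the lists were chosen with earlier results of these data known. Sequences came from RefSeq (GRCm38.p6). For likeness and lists, 1 gene most like *Cdpf1* and 1 gene list are not reported here.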

Additional observations from a re-analysis of the deposited data

Results flagged for a closer look

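*Eppk1* stood on opposite sides of 0 in different keratinocyte stages, which was not tested as a difference, with 1 animal per genotype. In granular cells its log2 ratio of knockout over wildtype was 2.25 (1.92 to 2.61), on 93 wildtype and 309 knockout UMIs, or 104 and 500 CPM, from 49 and 34 cells. The wildtype granular level was 1.89% of that of the highest sub-cluster, and spinous cells were at 5132 and 1574 CPM. The part of RNA from other cells in the granular ratio was not tested. In the other named stages it was lower in the knockout, with ratios of -4.25 in basal, -3.69 in proliferating, -3.09 in bulge and germ, -3.23 in upper follicle and -1.71 in spinous cells. None of the 8 genes had intervals on opposite sides of 0 in different cell types or stages.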

How the results depend on the processing

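No paired analysis was possible because each genotype has 1 library, and for the same reason no replicate could be left out. Of 150 ratios recomputed under 10 alternatives in keratinocytes and fibroblasts, 143 stayed within their counting interval, 7 left it and none with an interval off 0 changed sign. The 7 were *Csf2rb* in keratinocytes (0.01, against -0.74 and -0.49 with each cell gated by its own markers and 0.45 without shared droplet barcodes), *Arhgap8* in fibroblasts (1.22, against 0.49 without the cells most like doublets), *Pnpla3* in keratinocytes (1.89, against 1.43 as a mean over cells and 2.09 with clusters weighted by wildtype shares) and *Poldip3* in keratinocytes (0.55, against 0.61 as a mean over cells). Of 61 recomputed counts, 54 stayed within 1.5 times. The genes past 0.5 in fibroblasts numbered 6, and 3 without likely doublets. At a size of 1, 4 of the 8 genes were past it in keratinocytes and 2 in fibroblasts, and 3 genes of the region in both. The 7 genes of the region past 0.5 in both types became 11 at a minimum of 20 UMIs, 4 at 100 UMIs and 3 within 5 Mb, as fewer or more genes were tested. Without likely doublets *Arhgap8* no longer met the rule of a common direction, since its macrophage UMIs fell to 4 and 45, under the minimum of 50, and the ratio stayed at 3.55. The gate with a lead of 0.15 and the removal of sub-clusters led by other cell types were chosen after the data were seen. *Jrk*, *Ly6k* and *Pnpla3* in fibroblasts are limited by depth.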

Other observations

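A pair of genes of the region that are not among the 8 had larger ratios in keratinocytes. *Apobec3*, a cytidine deaminase that restricts retroviruses, lies 3.77 Mb after *Eppk1*. It had 118 wildtype and 8 knockout UMIs in keratinocytes, a log2 ratio of -3.24 (-4.57 to -2.30), and 103 and 443 UMIs in fibroblasts, a log2 ratio of 1.74 (1.43 to 2.07). *Csdc2*, which encodes an RNA-binding protein with a cold-shock domain, lies 5.82 Mb after it. It had 14 and 64 UMIs in keratinocytes, a log2 ratio of 2.71 (1.90 to 3.70), and 17 and 25 in fibroblasts, under the minimum of 50. The difference between cell types was not tested for either gene.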
